A study of Mus musculus with 12 samples.

Results

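The genes that make cholesterol and fatty acids were followed in mouse splenic B cells labelled CHD4 KO or WT, before and after activation in culture. The set held 30 genes, chosen by name for their known roles: 7 enzymes of the mevalonate pathway, 9 enzymes of the sterol branch that follows it, 5 proteins that control the pathway, 1 sterol carrier and 8 enzymes of fatty acid synthesis, elongation and desaturation. Their transcripts were found by gene symbol in the deposited count table. All 30 symbols were present among 32699, with 67 transcripts between them, and all 30 passed the filter on low counts.

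The libraries fell into 4 groups of 3. KO 48 hr and WT 48 hr were B cells purified from spleen and cultured for 48 hr with LPS at 10 µg/ml, which activates B cells through a Toll-like receptor, and mouse IL-4 at 25 ng/ml, a cytokine that directs class switching. KO 0 hr and WT 0 hr were the unstimulated cells of each genotype. CHD4 is a chromatin remodelling ATPase of the NuRD complex. The sources used here do not give the way the gene was deleted, nor the strain, age or number of animals. The p-values therefore measure the spread between these libraries, which may be partly technical.

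Cholesterol is built from acetyl-CoA through mevalonate and farnesyl diphosphate to squalene and lanosterol, and farnesyl diphosphate also feeds isoprenoid products. SREBP-2, the product of Srebf2, and SREBP-1, the product of Srebf1, are membrane-bound transcription factors that switch on these enzymes. SCAP escorts them out of the endoplasmic reticulum when sterols are low, and INSIG proteins hold SCAP back when sterols are high. Dividing lymphocytes need sterols and fatty acids to make new membrane.

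The 5 promoters below belong to the members with the largest rises in WT cells among those with a single promoter entry, and are shown for the letters through which SREBP and its partner factors act. Each runs from 250 bases before to 50 bases after the annotated start, 5′ to 3′ on the gene's strand, in RefSeq's GRCm38.p6 table. Capitals mark matches on either strand to the core sterol regulatory element TCACNCCAC, the CCAAT box CCAAT, the GC box GGGCGG or the E-box CACGTG, and none of the marked matches overlap.
Idi1 (chr13:8885356-8885655, plus strand): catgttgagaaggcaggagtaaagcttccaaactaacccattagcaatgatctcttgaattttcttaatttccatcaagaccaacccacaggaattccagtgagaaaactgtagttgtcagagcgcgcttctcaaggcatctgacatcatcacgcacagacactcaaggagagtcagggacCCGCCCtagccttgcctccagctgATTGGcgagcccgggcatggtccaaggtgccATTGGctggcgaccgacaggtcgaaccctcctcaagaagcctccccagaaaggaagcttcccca
Msmo1 (chr8:64733529-64733828, minus strand): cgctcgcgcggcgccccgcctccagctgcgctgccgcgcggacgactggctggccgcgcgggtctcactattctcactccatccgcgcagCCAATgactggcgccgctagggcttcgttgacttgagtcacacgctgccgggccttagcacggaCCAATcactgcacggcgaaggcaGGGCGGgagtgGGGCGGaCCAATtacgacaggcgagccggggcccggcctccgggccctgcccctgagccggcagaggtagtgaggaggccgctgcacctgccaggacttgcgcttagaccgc
Hmgcs1 (chr13:119690101-119690400, plus strand): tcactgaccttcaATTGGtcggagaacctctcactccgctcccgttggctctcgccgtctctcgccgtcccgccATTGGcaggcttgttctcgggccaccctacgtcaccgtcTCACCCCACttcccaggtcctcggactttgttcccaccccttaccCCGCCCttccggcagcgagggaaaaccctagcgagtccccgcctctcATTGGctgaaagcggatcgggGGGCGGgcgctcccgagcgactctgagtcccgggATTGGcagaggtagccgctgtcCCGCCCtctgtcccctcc
Cyp51 (chr5:4104648-4104947, minus strand): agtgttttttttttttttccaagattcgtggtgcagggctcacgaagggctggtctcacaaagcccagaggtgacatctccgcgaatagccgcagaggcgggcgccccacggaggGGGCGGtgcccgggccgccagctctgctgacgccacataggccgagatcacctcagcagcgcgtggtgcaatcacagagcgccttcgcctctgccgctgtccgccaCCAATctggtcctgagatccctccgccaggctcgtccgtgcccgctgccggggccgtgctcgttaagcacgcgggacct
Insig1 (chr5:28071162-28071461, plus strand): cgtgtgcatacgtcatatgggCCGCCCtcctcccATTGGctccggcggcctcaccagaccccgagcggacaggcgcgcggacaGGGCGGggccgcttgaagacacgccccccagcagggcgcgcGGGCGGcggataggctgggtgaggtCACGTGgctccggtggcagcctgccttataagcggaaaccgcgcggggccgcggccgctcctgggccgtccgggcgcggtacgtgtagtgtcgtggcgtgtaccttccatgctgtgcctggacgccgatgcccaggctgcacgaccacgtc
Promoters were found for 24 of the 30 members, with 33 entries, and Fdft1, Fdps, Scd1, Scd2, Sqle and Stard4 were not in the table. Hmgcs1 held the set's 1 match to TCACNCCAC, read as TCACCCCAC and starting 137 bases upstream of the start, where 1.24% of all 32851 promoters in the table hold a match. CCAAT was present in 21 of the 33 entries (63.6%), against 37.4% of all promoters. GGGCGG was present in 24 entries (72.7%), against 35.7% of all promoters, and CACGTG in 7 entries (21.2%), against 7.15%. These are matches of letters and not measured binding, and each motif was searched on both strands.

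Library totals ran from 38956484 to 53189198 estimated counts. The 7 B cell markers were present in every library, with summed levels of 5408 to 9428 CPM (counts relative to a common library total, adjusted by TMM scaling, which equalises libraries on the bulk of their genes). Chd4 itself measured 51.3, 38.8 and 74.7 CPM in KO 48 hr libraries and 102, 96.1 and 123 CPM in WT 48 hr libraries. It measured 100, 70.6 and 92.8 CPM in libraries labelled KO 0 hr and 99.4, 68.1 and 92.8 CPM in WT 0 hr libraries. The count over the whole gene was thus lower in KO at 48 hr (log2 fold change -0.96 ± 0.22, SE, adjusted p = 0.038) and differed by 0.02 at 0 hr (adjusted p = 0.99), and a summed count does not show whether an exon was removed. Within the KO groups, replicate 6 at 0 hr and replicate 12 at 48 hr had the highest summed B cell markers. The summed B cell markers were 9428 CPM in replicate 6, against 7390.0 and 7023 CPM in replicates 4 and 5, and 6537 CPM in replicate 12, against 5408 and 5885 CPM in replicates 10 and 11. Leaving both out together changed the call of 1 member, Scd2 at 0 hr, between genotypes. Sex-linked RNA moved with genotype: Xist was 0.856 to 1.59 CPM in the KO libraries and 75.4 to 293 CPM in the WT libraries, so genotype and this difference cannot be told apart.

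Nearly the whole set was higher in stimulated cells of both genotypes. At 48 hr against 0 hr, 28 of 30 members were higher and 1 was lower in KO cells, where 70.7% of all 19125 genes tested were called, 33% higher and 37.7% lower. In WT cells 29 were higher and 1 was lower, where 73.9% of all genes were called, 33% higher and 40.9% lower. By library totals alone 23 members were called higher and 2, Scd1 and Insig2, lower in each genotype. A gene is called at an adjusted p below 0.05 in edgeR's quasi-likelihood test with Benjamini-Hochberg adjustment over all genes tested. The members' median log2 fold change was 2.15 in KO cells and 2.40 in WT cells, beside -0.30 and -0.39 over all genes tested. The plot of all genes with the members above them shows the offset. As a share of all counts, the members took 0.460 to 0.561% of each 48 hr library and 0.185 to 0.275% of each 0 hr library, so the rise was also present without any scaling factor. In these bulk samples, a change in the RNA per cell and a change in the number of cells of a type cannot be told apart.

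**Figure D1:**
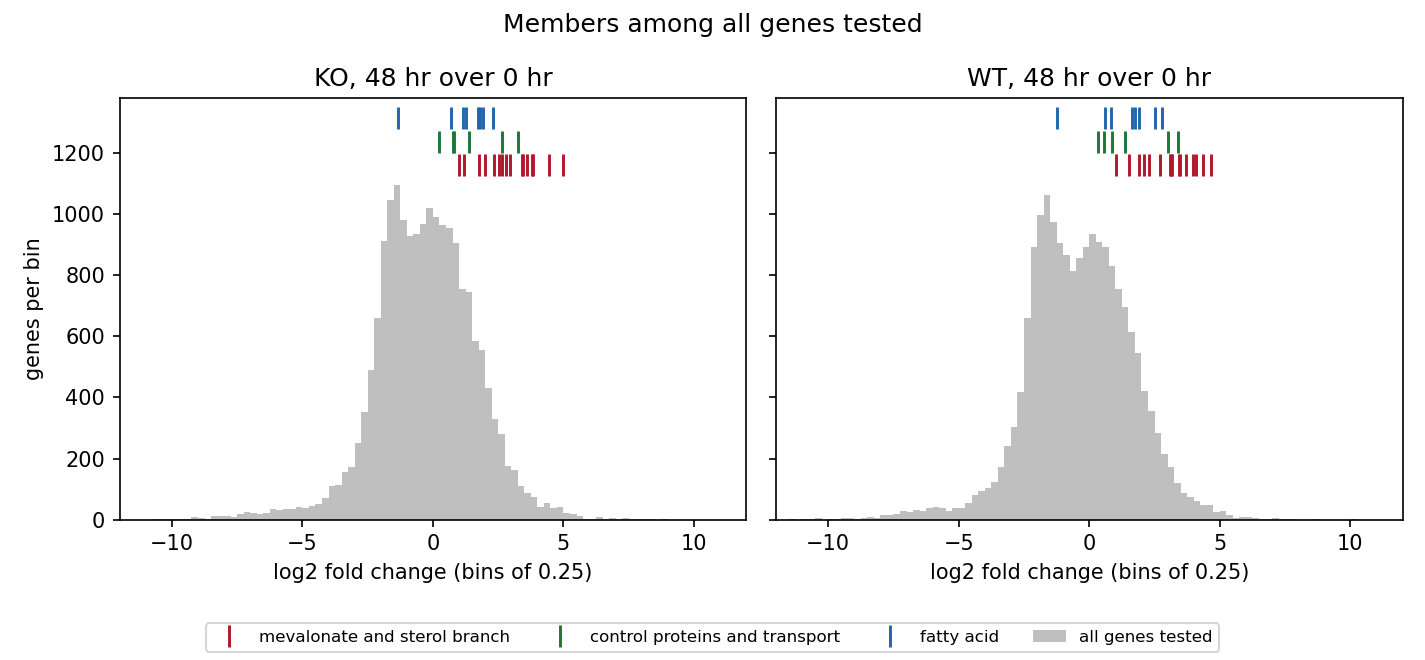
Number of genes per bin of log2 fold change, 48 hr over 0 hr, in KO (left) and WT (right) cells, with each member drawn as a tick above the grey histogram of all 19125 genes tested. The 16 mevalonate and sterol enzymes lie at 0.98 or more in KO cells and 1.04 or more in WT cells, while 1 fatty acid gene, Scd1, lies below 0.

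The mevalonate enzymes rose as a group. All 7 were called higher in both genotypes, with log2 fold changes of 2.01 to 4.98 in KO cells and 2.11 to 4.66 in WT cells. Idi1, the isopentenyl diphosphate isomerase, measured 991, 959 and 906 CPM in the KO 48 hr libraries and 821, 848 and 833 CPM in the WT 48 hr libraries. At 0 hr it measured 28.6, 26.3 and 35.5 CPM in KO and 33.4, 39.4 and 26.6 CPM in WT libraries. With TMM scaling, every 48 hr library was thus more than 20 times above every 0 hr library. The log2 fold change of 48 hr over 0 hr was 4.98 ± 0.17 (SE) in KO cells (adjusted p = 3.6e-11) and 4.66 ± 0.16 in WT cells (adjusted p = 5.1e-11). Idi1 had the set's largest change, ranking 102 from the top of all genes tested in KO cells and 141 in WT cells. Over 23 alternative fits its lowest log2 fold change was 4.17 in KO and 3.77 in WT cells. Fdps, the farnesyl diphosphate synthase at the branch point to isoprenoids, measured 402, 337 and 379.9 CPM in the KO 48 hr libraries and 438, 441 and 402 CPM in the WT 48 hr libraries. In 0 hr cells its level was 24.2, 24.2 and 29.2 CPM in KO and 25.0, 27.6 and 21.7 CPM in WT libraries. Its groups at 48 hr and 0 hr did not overlap, and its log2 fold change was 3.85 ± 0.13 (SE) in KO cells (adjusted p = 4.2e-11) and 4.11 ± 0.13 in WT cells (adjusted p = 3.7e-11). Hmgcs1, the HMG-CoA synthase whose promoter held the letter match to TCACNCCAC, measured 517, 439 and 441 CPM in the KO 48 hr libraries and 453, 412 and 464 CPM in the WT 48 hr libraries. Before stimulation it stood at 39.7, 43.5 and 48.9 CPM in KO and 39.3, 41.0 and 37.9 CPM in WT libraries. With TMM scaling it rose 10.6-fold in KO cells (adjusted p = 4.7e-11) and 11.2-fold in WT cells (adjusted p = 4.7e-11). These are log2 fold changes of 3.40 and 3.49, and the lowest over 23 alternative fits were 2.59 and 2.60. Acat2, the thiolase that starts the pathway, and Mvd, the decarboxylase, rose by 2.64 and 2.79 in KO cells and 3.10 and 3.12 in WT cells on the log2 scale. The kinases Mvk and Pmvk had the smallest rises of the 7, at 2.01 and 2.36 in KO cells and 2.28 and 2.11 in WT cells.

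**Figure D2:**
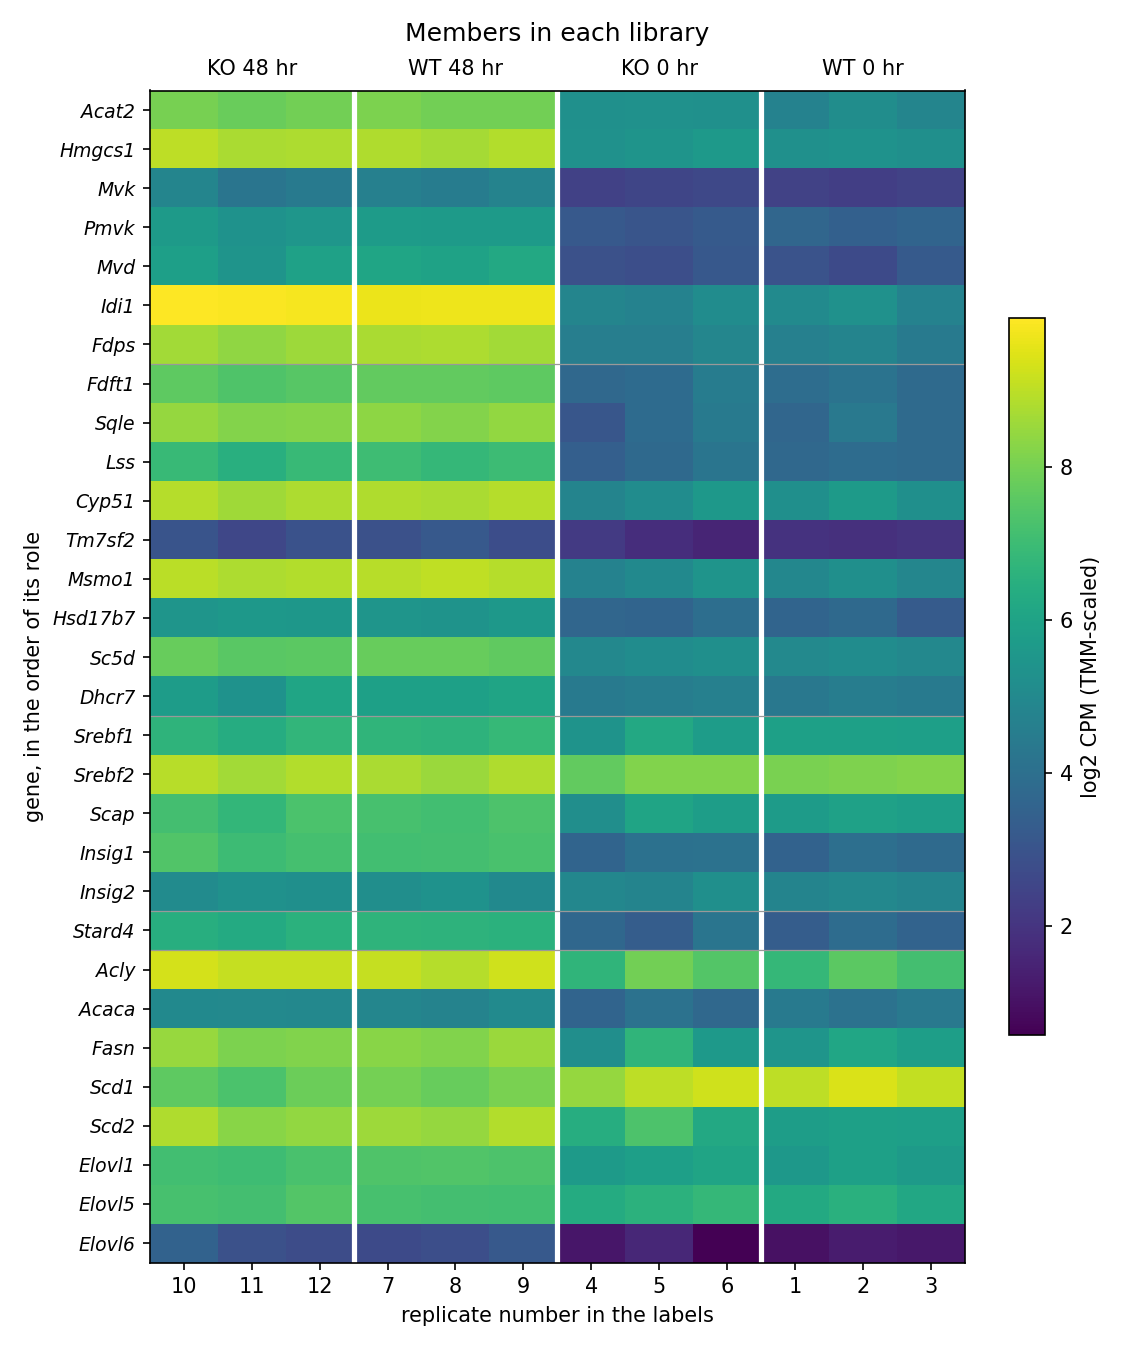
Level of each member in each library as log2 CPM on the colour scale, with genes in the order of their role and libraries in columns under their group. The 48 hr libraries are the brighter ones for nearly all genes, while Scd1 is brighter in the 0 hr libraries and Insig2 is alike in colour throughout.

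The sterol branch rose too, with all 9 enzymes called higher in both genotypes. Its log2 fold changes spread from 0.98 to 4.44 in KO cells and from 1.04 to 4.36 in WT cells. Sqle, the squalene epoxidase, which acts on squalene ahead of lanosterol synthase, measured 350.2, 299.6 and 306 CPM in the KO 48 hr libraries and 326, 298 and 346 CPM in the WT 48 hr libraries. Its 0 hr values were 8.53, 14.3 and 21.1 CPM in KO and 12.8, 20.4 and 14.1 CPM in WT libraries. Relative to their level the 0 hr libraries differed among themselves more than the 48 hr libraries did, and every 48 hr library was above every 0 hr library. The log2 fold change of 48 hr over 0 hr was 4.44 ± 0.28 (SE) in KO cells (adjusted p = 7e-09) and 4.36 ± 0.28 in WT cells (adjusted p = 7.6e-09). Msmo1, the methylsterol monooxygenase, measured 506, 449.7 and 471 CPM in the KO 48 hr libraries and 499, 534 and 475 CPM in the WT 48 hr libraries. At 0 hr it measured 26.8, 32.9 and 43.3 CPM in KO and 30.1, 37.7 and 29.2 CPM in WT libraries. Its log2 fold change was 3.79 ± 0.17 (SE) in KO cells (adjusted p = 3e-10) and 3.96 ± 0.17 in WT cells (adjusted p = 2.1e-10). Fdft1, the squalene synthase that commits farnesyl diphosphate to sterols, measured 199.9, 164 and 182 CPM in the KO 48 hr libraries and 207, 205 and 199 CPM in the WT 48 hr libraries. In 0 hr cells its level was 13.2, 14.5 and 22.8 CPM in KO and 15.1, 17.8 and 13.9 CPM in WT libraries. With TMM scaling Fdft1 rose 10.8-fold in KO cells (adjusted p = 1.6e-09) and 13.0-fold in WT cells (adjusted p = 8.4e-10). Fdft1 shares 774 exon bases with Ctsb on the other strand, which reads without strand cannot separate. Cyp51, the lanosterol demethylase, measured 482, 397 and 443 CPM in the KO 48 hr libraries and 460.1, 439 and 476 CPM in the WT 48 hr libraries. Before stimulation it stood at 27.6, 34.8 and 47.0 CPM in KO and 38.0, 51.4 and 38.3 CPM in WT libraries. Cyp51 in 48 hr libraries lay above every 0 hr library, and its log2 fold change was 3.59 ± 0.19 (SE) in KO cells (adjusted p = 1.2e-09) and 3.43 ± 0.19 in WT cells (adjusted p = 1.6e-09).

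The remaining sterol enzymes rose less. Lss, the lanosterol synthase, and Sc5d, the lathosterol oxidase, changed by 2.95 and 2.51 in KO cells and 3.16 and 2.72 in WT cells on the log2 scale. Hsd17b7, a sterol ketone reductase, and Dhcr7, the reductase of the last step to cholesterol, changed by 1.78 and 1.21 in KO cells and 1.91 and 1.54 in WT cells. Tm7sf2, a sterol reductase, had the smallest rise of the branch, at 7.19 ± 1.15 CPM in KO 48 hr and 7.85 ± 1.18 CPM in WT 48 hr cells, against 3.64 ± 0.820 CPM in KO 0 hr and 3.82 ± 0.144 CPM in WT 0 hr cells (mean ± SD, n = 3 each). The call on Tm7sf2 was lost under upper-quartile scaling in both genotypes. Of 23 alternative fits 21 kept the call in each genotype, and the lowest log2 fold change was 0.17 in KO and 0.15 in WT cells. Summed over the 16 mevalonate and sterol enzymes, the level was 3990 ± 276 CPM in KO 48 hr, 4048 ± 41.6 CPM in WT 48 hr, 353 ± 52.7 CPM in KO 0 hr and 342 ± 35.8 CPM in WT 0 hr cells (SD, n = 3 each). The sums of the 2 genotypes differed by less than the SD of the KO libraries at each time. Stard4, which carries sterols between membranes, rose by 2.64 in KO cells (adjusted p = 4.7e-08) and 3.03 in WT cells (adjusted p = 1.3e-08) on the log2 scale.

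**Figure D3:**
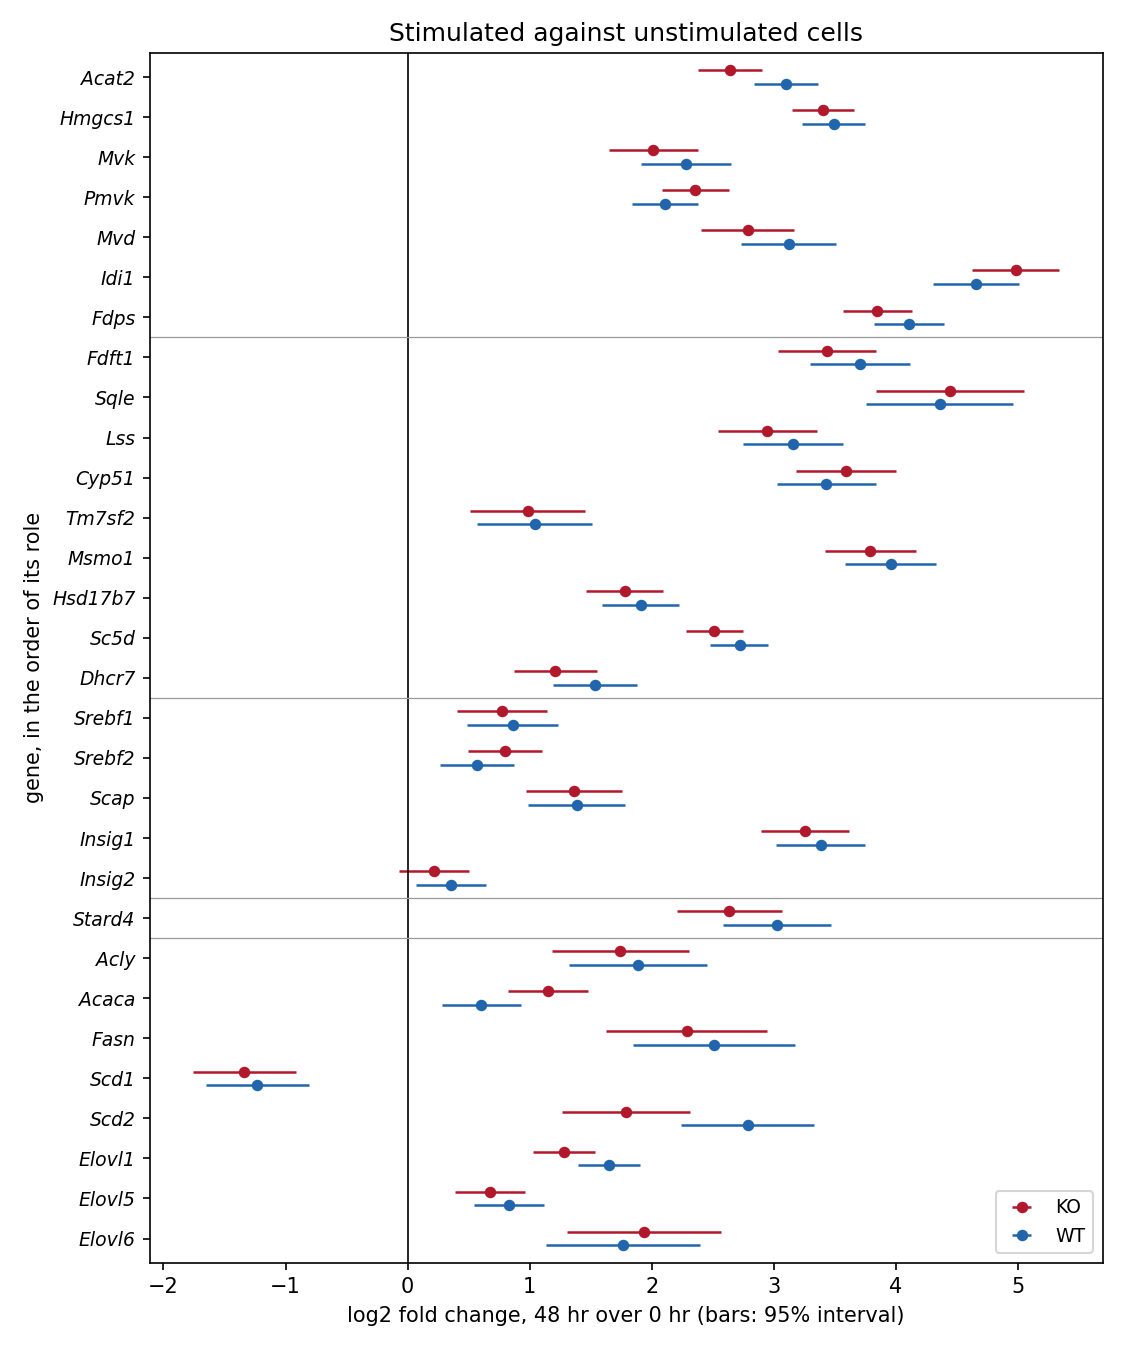
Log2 fold change of each member, 48 hr over 0 hr, with its 95% interval as a bar, in KO (red) and WT (blue) cells, with lines between the roles. Idi1 and Sqle are farthest to the right and Scd1 is to the left of 0 in both genotypes, and the KO interval of Insig2 crosses 0.

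Among the proteins that control the pathway, Insig1 stood apart from the other 4. Insig1, which holds SCAP in the endoplasmic reticulum and is itself switched on by SREBP, measured 171, 129 and 144 CPM in the KO 48 hr libraries and 139, 142 and 151 CPM in the WT 48 hr libraries. Its 0 hr values were 12.1, 16.8 and 17.5 CPM in KO and 11.6, 15.9 and 13.9 CPM in WT libraries. Each 48 hr library held more than 7 times the level of any 0 hr library. The log2 fold change of 48 hr over 0 hr was 3.26 ± 0.17 (SE) in KO cells (adjusted p = 9.3e-10) and 3.39 ± 0.17 in WT cells (adjusted p = 6.4e-10). Insig2, its relative, measured 33.9, 40.02 and 37.9 CPM in the KO 48 hr libraries and 37.3, 40.7 and 32.9 CPM in the WT 48 hr libraries. At 0 hr it measured 30.5, 28.2 and 37.7 CPM in KO and 28.2, 30.9 and 27.6 CPM in WT libraries. The Insig2 values overlapped between KO 48 hr and KO 0 hr libraries and did not overlap between WT 48 hr and WT 0 hr libraries. Its log2 fold change was 0.22 ± 0.13 (SE) in KO cells (adjusted p = 0.16) and 0.35 ± 0.13 in WT cells (adjusted p = 0.027), and it turned to -0.41 in KO and -0.32 in WT cells under upper-quartile scaling and to -0.60 and -0.535 by library totals alone. Under both of these scalings Insig2 was called lower, with adjusted p of 0.0094 in KO and 0.034 in WT cells by edgeR under upper-quartile scaling, and 0.0004 and 0.0009 by library totals. Per kb of exon, Insig1 was 4.52 ± 1.05 times Insig2 in KO 48 hr and 4.42 ± 0.66 times in WT 48 hr libraries, against 0.545 ± 0.113 times in KO 0 hr and 0.535 ± 0.0652 times in WT 0 hr libraries (SD, n = 3 each). The order of the 2 genes was therefore opposite at the 2 times, whichever scaling was used, since a ratio within a library does not depend on it.

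The transcription factor genes and Scap had smaller log2 changes than Insig1. Srebf2 measured 495, 399 and 463 CPM in the KO 48 hr libraries and 429, 371 and 461 CPM in the WT 48 hr libraries. In 0 hr cells its level was 206, 288 and 288 CPM in KO and 268, 284 and 299.9 CPM in WT libraries. The 48 hr libraries were higher without overlap, and the log2 fold change was 0.80 ± 0.14 (SE) in KO cells (adjusted p = 0.0002) and 0.57 ± 0.14 in WT cells (adjusted p = 0.0025); it became -0.017 in KO and -0.32 in WT cells when libraries were compared by their totals alone, and -0.11 in WT cells under upper-quartile scaling. Srebf1 measured 103, 83.6 and 107 CPM in the KO 48 hr libraries and 104, 99.6 and 117 CPM in the WT 48 hr libraries. Before stimulation it stood at 41.8, 75.7 and 54.0 CPM in KO and 59.5, 59.2 and 58.1 CPM in WT libraries. Its 48 hr libraries were also above every 0 hr library, with a log2 fold change of 0.77 ± 0.17 (SE) in KO cells (adjusted p = 0.0013) and 0.86 ± 0.17 in WT cells (adjusted p = 0.00054), which became -0.044 in KO and -0.027 in WT cells by library totals alone. Scap measured 143, 110.2 and 155 CPM in the KO 48 hr libraries and 149, 139 and 159.8 CPM in the WT 48 hr libraries. Its 0 hr values were 36.9, 65.7 and 56.0 CPM in KO and 52.2, 62.1 and 57.1 CPM in WT libraries. It was the only one of these 3 to stay called under each scaling tried, with a log2 fold change of 1.36 ± 0.18 (SE) in KO cells (adjusted p = 1.6e-05) and 1.39 ± 0.18 in WT cells (adjusted p = 1.3e-05). Relative to the median of all genes under the same scaling, the log2 changes were 1.10 for Srebf2, 1.07 for Srebf1 and 0.52 for Insig2 in KO cells, and 0.96, 1.25 and 0.74 in WT cells. Per kb, Srebf2 exceeded Srebf1 in every library, by 3.64 ± 0.21 times in KO 48 hr, 3.08 ± 0.16 times in WT 48 hr, 3.68 ± 0.62 times in KO 0 hr and 3.78 ± 0.26 times in WT 0 hr libraries (SD, n = 3 each).

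**Figure D4:**
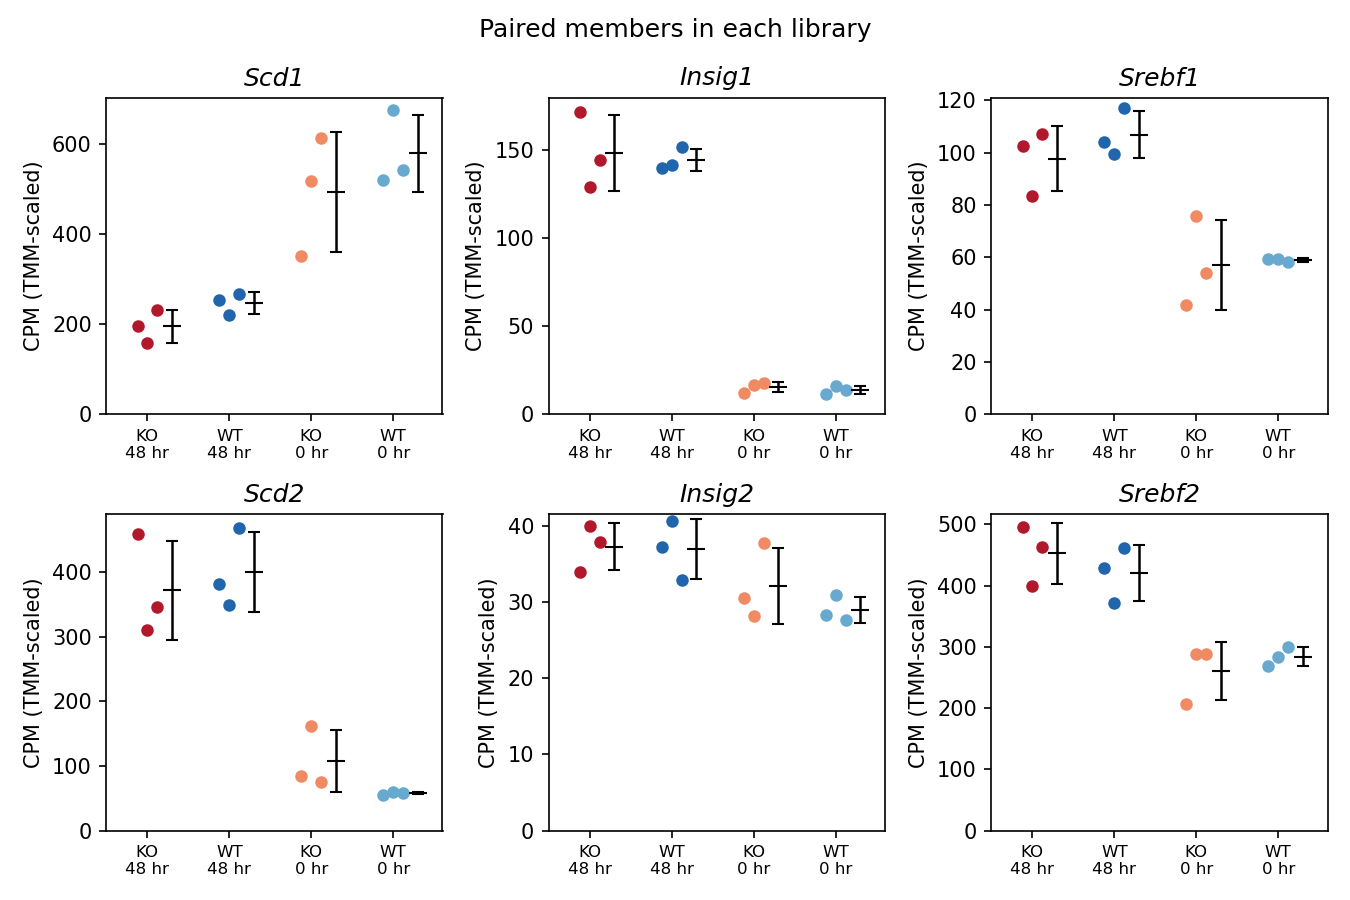
Level in CPM of Scd1 and Scd2, Insig1 and Insig2, and Srebf1 and Srebf2 in each library (points), with the mean and SD of each group (black bars, n = 3). Scd1 is lower and Scd2 higher at 48 hr, Insig1 is higher at 48 hr while Insig2 stays between 27.6 and 40.7 CPM, and each Srebf gene is higher at 48 hr, which for Srebf1 and Srebf2 turned to a difference below 0 by library totals alone.

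The desaturases Scd1 and Scd2, which put the first double bond into saturated fatty acids, moved in opposite directions. Scd1 measured 197, 157 and 232 CPM in the KO 48 hr libraries and 255, 220.0 and 267 CPM in the WT 48 hr libraries. At 0 hr it measured 351, 518 and 614 CPM in KO and 520.2, 677 and 542 CPM in WT libraries. All 48 hr libraries were below all 0 hr libraries, making Scd1 the single member called lower. The log2 fold change of 48 hr over 0 hr was -1.34 ± 0.20 (SE) in KO cells (adjusted p = 3.4e-05) and -1.23 ± 0.19 in WT cells (adjusted p = 6.8e-05), a 2.53-fold and a 2.35-fold fall. Scd2 measured 459, 311 and 346 CPM in the KO 48 hr libraries and 382, 349.7 and 469 CPM in the WT 48 hr libraries. In 0 hr cells its level was 84.9, 162 and 75.7 CPM in KO and 55.7, 59.8 and 58.5 CPM in WT libraries. Its 48 hr libraries were above every 0 hr library, and its log2 fold change was 1.79 ± 0.25 (SE) in KO cells (adjusted p = 1.9e-05) and 2.79 ± 0.25 in WT cells (adjusted p = 2.8e-07). Per kb, Scd2 was 1.73 ± 0.38 times Scd1 in KO 48 hr and 1.45 ± 0.12 times in WT 48 hr libraries, against 0.203 ± 0.0858 times in KO 0 hr and 0.0905 ± 0.00992 times in WT 0 hr libraries (SD, n = 3 each). Both genes are neighbouring relatives on chromosome 19, and reads from stretches they share were divided between them by the authors' quantifier. Monocyte and macrophage markers fell with Scd1. The 7 summed to 24.5 to 44.6 CPM in KO 48 hr and 18.6 to 21.2 CPM in WT 48 hr libraries. At 0 hr they summed to 166 to 455 CPM in KO and 147 to 307 CPM in WT libraries. All tested T cell, NK cell, erythroid and platelet markers were also called lower in both genotypes. The dendritic cell markers were mixed: of 4, Flt3 was called higher and Siglech and Itgax lower in both genotypes. They summed to 91.67 to 97.65 CPM in WT 48 hr against 40.38 to 62.3 CPM in WT 0 hr libraries. The KO sums overlapped, at 58.75 to 74.47 CPM at 48 hr and 35.25 to 76.69 CPM at 0 hr. Flt3 alone held 83.99 to 86.52 CPM of the WT 48 hr sums. Of the 7 B cell markers, 4 were called lower and 1 higher at 48 hr in each genotype. The part of other cell types in the result was not tested. The 5 adipocyte markers summed to at most 0.949 CPM in any library.

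The synthesis enzymes rose. Fasn, the fatty acid synthase, measured 360.3, 275 and 291 CPM in the KO 48 hr libraries and 309.7, 291 and 375 CPM in the WT 48 hr libraries. Before stimulation it stood at 36.7, 103 and 49.8 CPM in KO and 43.9, 70.1 and 57.1 CPM in WT libraries. Replicate 5 of KO 0 hr stood above its group, and it also held the highest sum of macrophage markers (455 CPM, against 229 and 166 CPM in replicates 4 and 6), whose part was not tested. The log2 fold change of 48 hr over 0 hr was 2.29 ± 0.31 (SE) in KO cells (adjusted p = 1.5e-05) and 2.51 ± 0.31 in WT cells (adjusted p = 6.2e-06). Acly, which makes cytosolic acetyl-CoA from citrate, rose by 1.74 in KO and 1.89 in WT cells on the log2 scale, and replicate 5 was again the highest KO 0 hr library, at 249 CPM. Acaca, the acetyl-CoA carboxylase, rose by 1.15 in KO cells (adjusted p = 1.3e-05) and 0.61 in WT cells (adjusted p = 0.0025), of which the WT change turned to -0.075 under upper-quartile scaling and -0.29 by library totals alone. The elongases Elovl1, Elovl5 and Elovl6 were called higher in both genotypes, by 1.28, 0.68 and 1.94 in KO cells and 1.65, 0.83 and 1.76 in WT cells, and Elovl5 turned to -0.135 in KO and -0.055 in WT cells by library totals alone.

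Compared per kb of exon, the order of the members differed between resting and stimulated cells. At 0 hr Scd1 ranked first, at 101 ± 27.2 CPM per kb in KO and 119 ± 17.4 CPM per kb in WT cells (SD, n = 3 each). Srebf2 followed, at 36.3 ± 6.61 in KO and 39.5 ± 2.21 in WT cells, and Acly came next, at 33.3 ± 13.7 and 28.4 ± 7.84, within the spread of Srebf2 in KO and below it in WT. At 48 hr Idi1 ranked first, at 272 ± 12.2 CPM per kb in KO and 238 ± 3.88 CPM per kb in WT cells. Below Idi1 the levels lay close together: Acly measured 112 ± 10.1 in KO and 105 ± 13.3 in WT, Cyp51 99.8 ± 9.70 and 104 ± 4.24, and Hmgcs1 101 ± 9.70 and 96.5 ± 6.01, so the libraries of neighbours in this order overlapped. In KO cells Acat2 and Fdps ranked 5 and 6, at 95.9 ± 6.83 and 88.6 ± 7.89, and every library of both was below every library of Acly. Elovl6 ranked last in all 4 groups, at 1.33 ± 0.405 in KO 48 hr, 1.17 ± 0.217 in WT 48 hr, 0.347 ± 0.121 in KO 0 hr and 0.345 ± 0.0365 in WT 0 hr cells.

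In stimulated cells no member passed the test between genotypes. At 48 hr, 0 of 30 members were called in KO against WT, where 2.02% of all genes tested were called (386 genes), and 0 members had an unadjusted p under 0.05 (5 by DESeq2), where 14.4% of all genes did. After adjustment DESeq2, limma-voom and edgeR's likelihood ratio test also called 0 members. The members' log2 fold changes ran from -0.35 for Mvd to 0.19 for Idi1, with a median of -0.09, beside 0.01 over all genes. All 30 members had a 95% interval within a 2-fold change in either direction. Mvd measured 58.2, 42.8 and 60.9 CPM in the KO 48 hr libraries and 68.7, 63.3 and 75.0 CPM in the WT 48 hr libraries, without overlap (log2 fold change -0.35 ± 0.17, SE, 95% interval -0.71 to 0.00, adjusted p = 0.35). Idi1 was higher without overlap, at 0.19 (adjusted p = 0.61). Stard4 and Elovl1 were lower without overlap, at -0.19 and -0.22 (adjusted p = 0.72 and 0.42). Such separation of 3 from 3 libraries occurred in 4 of 30 members and in 20.2% of all genes tested. Sqle, Hmgcs1, Insig1 and Fasn had 95% intervals of -0.54 to 0.50, -0.16 to 0.30, -0.29 to 0.37 and -0.70 to 0.55, and a p above the threshold does not show that the genotypes were alike.

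In resting cells 0 of 30 members were called in libraries labelled KO against WT, where 1.11% of all genes tested were called (212 genes). An unadjusted p under 0.05 was found for 4 members, where 10.7% of all genes had one: Scd2, Pmvk, Acat2 and Acaca, named here after their values were seen. DESeq2 called 3 members, edgeR's likelihood ratio test 1 and limma-voom 0. Scd2 measured 84.9, 162 and 75.7 CPM in the libraries labelled KO 0 hr and 55.7, 59.8 and 58.5 CPM in the WT 0 hr libraries. The groups did not overlap, and replicate 5, at 162 CPM, was the highest of its group. The log2 fold change of Scd2 was 0.89 ± 0.24 (SE), with a 95% interval of 0.38 to 1.41 and an adjusted p of 0.11. DESeq2 called Scd2 (adjusted p = 0.012), as did the likelihood ratio test (adjusted p = 0.015) and the fit without KO 0 hr replicate 6 (log2 fold change 1.09, adjusted p = 0.027). Of 23 alternative fits only 4 called Scd2, and its log2 fold change ran from 0.47 to 1.09 over them. Monocyte and macrophage markers were also highest in replicate 5, at 455 CPM in sum, and their part in Scd2's level was not tested.

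Pmvk measured 9.08, 8.23 and 9.44 CPM in the libraries labelled KO 0 hr and 12.8, 10.9 and 12.2 CPM in the WT 0 hr libraries, lower without overlap (log2 fold change -0.42 ± 0.12, SE, adjusted p = 0.15, and 0.017 by DESeq2). Acat2 measured 39.2, 39.4 and 38.8 CPM in the libraries labelled KO 0 hr and 26.6, 35.7 and 28.3 CPM in the WT 0 hr libraries, higher without overlap (log2 fold change 0.38 ± 0.12, SE, adjusted p = 0.18, and 0.039 without WT 0 hr replicate 2). Acaca measured 12.1, 17.1 and 13.4 CPM in the libraries labelled KO 0 hr and 21.5, 17.0 and 20.5 CPM in the WT 0 hr libraries, and its groups overlapped (log2 fold change -0.47 ± 0.15, SE, adjusted p = 0.21, and 0.042 by DESeq2). These 4 genes thus did not share a direction. Groups without overlap occurred in 3 of 30 members and in 14.9% of all genes tested. Over the other members the log2 fold changes lay between -0.23 for Scd1 and 0.27 for Elovl5, and 29 of 30 members, all but Scd2, had a 95% interval within a 2-fold change.

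**Figure D5:**
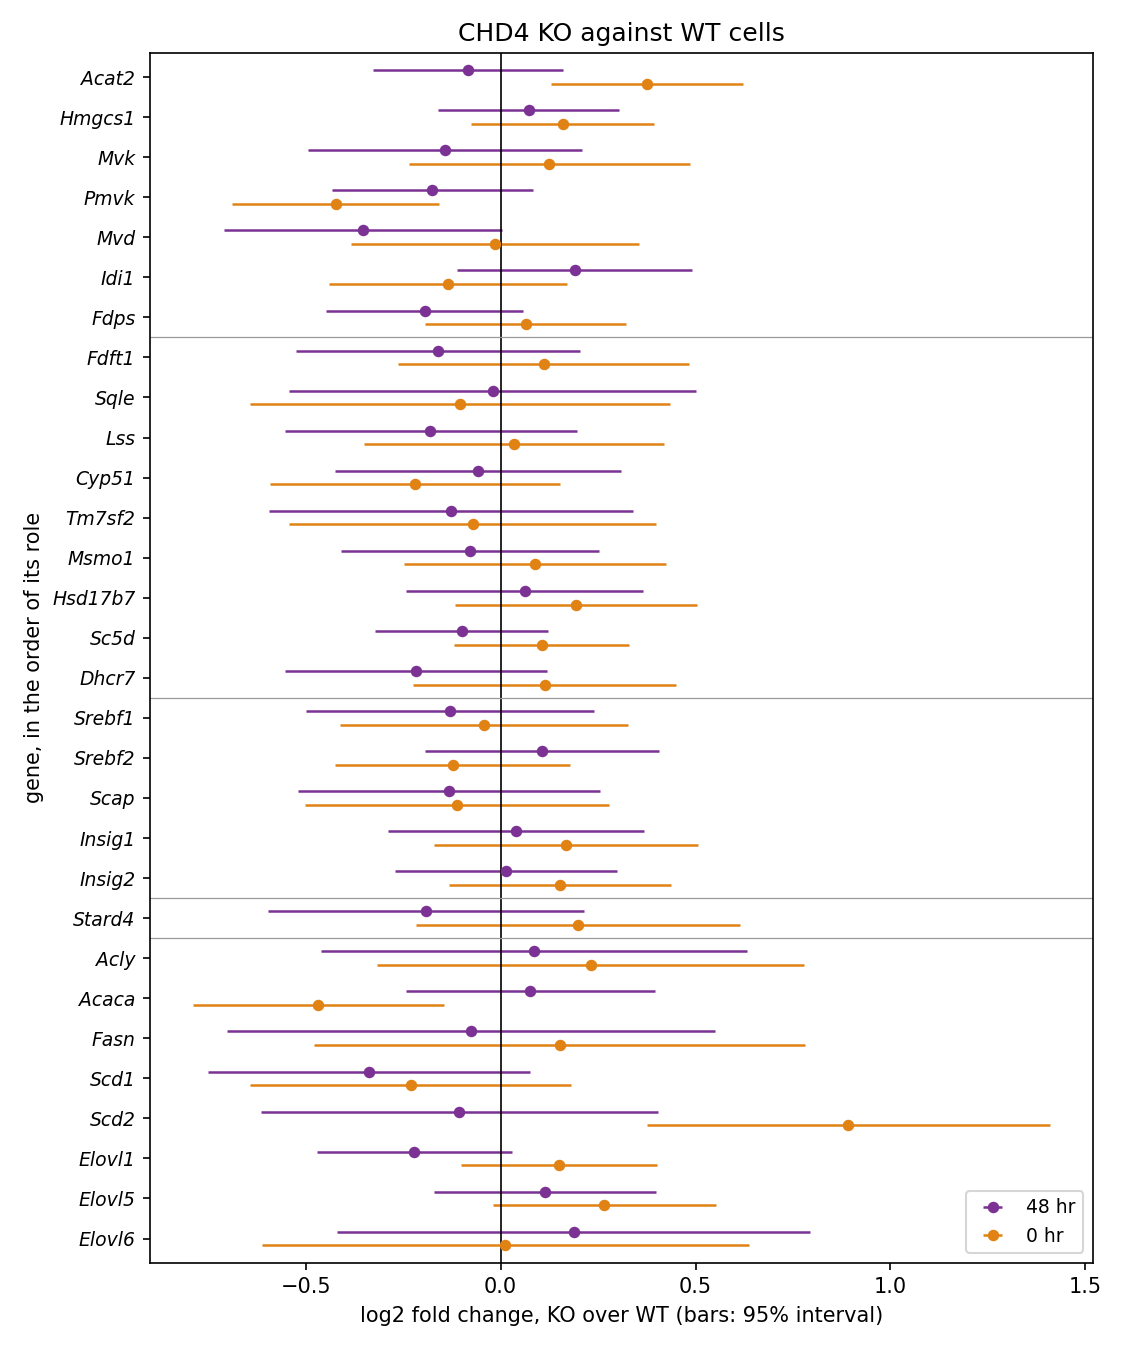
Log2 fold change of each member, KO over WT, with its 95% interval as a bar, at 48 hr (purple) and 0 hr (orange), with lines between the roles. At 48 hr every interval lies within 1 log2 unit of 0, and at 0 hr Scd2 alone reaches beyond it, to 1.41.

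No member passed the test for a different response to stimulation in the 2 genotypes. In the genotype by time interaction 0 of 30 members were called, where 0.115% of all genes tested were called (22 genes), and 4 members had an unadjusted p under 0.05, where 8.61% of all genes did. Those 4 were Scd2 (log2 difference of the KO and WT responses -0.998 ± 0.34, SE, adjusted p = 0.41), Acat2 (-0.46, adjusted p = 0.43), Acaca (0.54, adjusted p = 0.48) and Elovl1 (-0.37, adjusted p = 0.55). DESeq2, limma-voom and edgeR's likelihood ratio test called 0 members. Across the 30 members the KO and WT log2 responses, which share no library, had a Pearson correlation of 0.979 and a Spearman correlation of 0.982, beside 0.89 and 0.915 across all genes tested. Genes are not independent replicates, so these describe the set. The KO log2 response lay below the WT one in 23 of 30 members and in 9302 of all 19125 genes tested. The median difference was -0.14 over members, beside 0.01 over all genes, and whether the set as a whole differed was not tested.

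Within groups the same library was often the highest or lowest for many members. Replicate 11 was the lowest KO 48 hr library for 25 of 30 members. In KO 0 hr, replicate 6 was the highest for 21 members and replicate 4 the lowest for 19, and in WT 0 hr replicate 2 was the highest for 23. No such counts over all genes are given here, so these do not show a trait particular to the set. The median coefficient of variation over members was 10.4% in KO 48 hr, 6.79% in WT 48 hr, 18.6% in KO 0 hr and 12.1% in WT 0 hr cells, beside 8.99, 8.41, 15.3 and 10.9% over the 10090 genes with a mean of at least 5 CPM. Fasn varied most in KO 0 hr, with 55.8%, and Elovl6 most in KO 48 hr, with 30.5%. Replicate 4 of KO 0 hr also held the most erythroid RNA, at 3366 CPM in sum against 278 and 847 CPM in replicates 5 and 6, and its part in that library's levels was not tested.

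Single transcripts were tested as well. Of 67 member transcripts 65 were tested, and 37 were called higher and 3 lower in each genotype at 48 hr against 0 hr, where 23.8% of 36629 transcripts were called higher and 26% lower in KO cells, and 24.7% higher and 27.8% lower in WT cells. No member transcript was called in KO against WT at 48 hr, where 0.202% of transcripts were higher and 0.139% lower, or at 0 hr, where 0.126% were higher and 0.101% lower. None was called in the interaction, where 0.00273% were higher and 0.00546% lower. Acaca changed form: transcript uc007kqk.1 held 12.4% of the gene's counts in KO 48 hr and 12.7% in WT 48 hr cells, against 47.5% in KO 0 hr and 42.7% in WT 0 hr cells. It fell by 0.74 in KO cells (adjusted p = 0.015) and by 1.09 in WT cells (adjusted p = 0.0016) on the log2 scale, while uc007kql.1 rose by 1.84 in KO (adjusted p = 0.00014) and 1.25 in WT cells (adjusted p = 0.0017). Scap transcript uc009rtw.3 held 69.6% of the gene in KO 48 hr and 60.7% in WT 48 hr cells, against 38.3% in KO 0 hr and 37.9% in WT 0 hr cells. For Insig2 in WT cells, uc007cjq.2 rose by 1.70 (adjusted p = 0.00087) and uc007cjo.1 fell by 1.98 (adjusted p = 0.0061), and in KO cells neither was called (adjusted p = 0.056 and 0.14). Reads shared by transcripts of a gene were divided by the quantifier, so these shares are estimates. In the GENCODE M21 annotation 9 members share exon bases with a gene on the other strand, from which unstranded reads cannot be told apart. The largest shares of exon length were 18.3% for Fdft1 with Ctsb, 13.2% for Scap with 5830462I19Rik and 12.1% for Hmgcs1 with Gm48342.

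Genes around the set were counted in 8 lists, to be read beside the calls over all 19125 genes tested. With TMM scaling 33% of all genes were called higher in each genotype, and 37.7% (KO) and 40.9% (WT) lower. By library totals alone 3657 genes were called higher and 11344 lower in KO, and 3603 and 11925 in WT cells. The remaining sterol enzymes and their helpers, 7 genes, were all higher at 48 hr in both genotypes, and 6 of 7 remained called when libraries were compared by their totals. Nsdhl, a sterol dehydrogenase, rose by 2.58 in KO and 2.48 in WT cells on the log2 scale. Of 12 sterol uptake and lysosomal release genes, 6 were higher and 3 lower in KO cells and 5 were higher and 3 lower in WT cells, against 5 higher and 6 lower in KO and 4 higher and 5 lower in WT cells by library totals alone. Scarb1, the HDL receptor, rose by 1.90 in KO and 2.46 in WT cells.

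More sterol efflux genes were lower than higher. Of 13 LXR target, efflux and esterification genes tested, 1 was higher and 7 were lower in each genotype, with medians of -1.96 in KO and -1.07 in WT cells beside -0.30 and -0.39 over all genes, of which 37.7% and 40.9% were called lower. By library totals alone, as under upper-quartile scaling, 1 was higher and 11 were lower in each genotype. Abca1, a cholesterol exporter, was 0.871 ± 0.561 CPM in KO 48 hr and 1.18 ± 0.618 CPM in WT 48 hr, against 148 ± 24.03 CPM in KO 0 hr and 178 ± 5.03 CPM in WT 0 hr cells (log2 fold change -7.40 and -7.24). Mylip, a ubiquitin ligase, fell to 13.7 ± 1.51 CPM in WT 48 hr, against 106 ± 11.4 CPM in WT 0 hr cells. Macrophages also express several genes of this list, their markers fell at 48 hr in the sums given above, and their part was not tested. Among the lists counted here, only this one held genes called between genotypes, 1 of 13 tested at 0 hr and 1 of 13 at 48 hr. Of all genes tested, 1.11% were called at 0 hr and 2.02% at 48 hr. Apoe, an apolipoprotein, measured 81.8, 134 and 109 CPM in the libraries labelled KO 0 hr and 203, 255 and 200.4 CPM in the WT 0 hr libraries (log2 fold change -1.02 ± 0.20, SE, adjusted p = 0.025). Abcg1, another exporter, measured 9.61, 10.7 and 11.9 CPM in the KO 48 hr libraries and 18.6, 21.1 and 17.9 CPM in the WT 48 hr libraries (log2 fold change -0.84 ± 0.13, SE, adjusted p = 0.0036). Both were lower in KO without overlap, and neither was called in the interaction (adjusted p = 0.57 and 0.09).

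The SREBP processing and turnover list, 11 genes, had 4 higher and 1 lower in each genotype with TMM scaling. By library totals alone 0 were higher and 7 (KO) or 8 (WT) lower, where 11344 (KO) and 11925 (WT) of all 19125 genes were lower. The direction of this list thus rested on the scaling. Of 13 isoprenoid genes 9 were higher and 1 lower in KO cells and 10 were higher and 1 lower in WT cells, and 5 were higher and 4 lower in each genotype by library totals. Pdss1, which builds the tail of coenzyme Q, rose by 3.52 and 3.48, and Rabggtb, a subunit of the enzyme that prenylates Rab proteins, by 2.76 and 2.85. Among 19 other fatty acid synthesis and desaturation genes tested, 13 were higher and 1 lower in KO and 11 higher and 3 lower in WT cells, where 33% of all genes were called higher in each genotype. By library totals alone 12 were higher and 4 lower in KO and 8 higher and 5 lower in WT cells. The polyunsaturated fatty acid desaturases Fads1 and Fads2 rose by 3.47 and 3.15 in KO and 3.94 and 3.48 in WT cells. Of the 5 acyl-CoA synthetases 4 were higher in both genotypes, against 3 higher and 1 lower in KO and 3 higher in WT cells by library totals alone. They were led by Acsl3 (2.75 and 2.57) and Acsl5 (2.33 and 2.30). Of 22 fatty acid oxidation genes 16 were higher in each genotype, and 3 (KO) and 4 (WT) were lower, but by library totals alone 7 were higher and 9 lower in KO and 6 higher and 7 lower in WT cells. Cpt1a, which admits fatty acids to mitochondria, was among those lower, at -2.88 and -3.13. Apart from Apoe and Abcg1, no gene of the 8 lists was called between genotypes at either time, and none was called in the interaction.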

How the data were processed

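The deposited values are estimated counts per transcript, given by the authors as whole numbers and made with bcl2fastq 2.20.0.422, Trimmomatic 0.36 and Salmon 0.8.2 on mm10, per the submitters' processing notes, from total RNA amplified with SMART-Seq v4, per the labels' protocols. This kit does not mark strand. Transcripts were summed to gene symbols, after trimming trailing spaces from 344 names, and 19125 of 32699 genes passed filterByExpr. Totals ran from 38956484 to 53189198, and intervals cover the spread between libraries. TMM factors ran from 1.28 to 1.42 in the 0 hr libraries and from 0.723 to 0.766 in the 48 hr libraries. Log2 changes of 48 hr over 0 hr are therefore higher with TMM scaling than by library totals. The 12 libraries were fitted together with edgeR 4.0.16 (robust quasi-likelihood, R 4.3.3), with Benjamini-Hochberg adjustment over all genes and calls at 0.05; DESeq2 1.42.0 and limma 3.58.1 were alternatives. The procedure was tested on simulated data. No 2 libraries of the same group were duplicates: their counts differed by more than sampling noise. Libraries of different groups were not compared in this way. Values per kb used the union of GENCODE M21 exons. Members given in every library were those called between genotypes or in the interaction, the 6 largest rises and falls in WT cells, and Srebf1, Srebf2, Scap, Insig1, Insig2, Hmgcs1, Sqle, Cyp51, Fasn, Scd1 and Scd2. Mvd, Pmvk, Acat2 and Acaca lay outside this rule and were added, each at a single time, after their values were seen. From each pathway list up to 4 of the most changed called genes were eligible. Members and lists were chosen with earlier results of these data known.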

Additional observations from a re-analysis of the deposited data

How the results depend on the processing

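No paired analysis was possible because the replicate numbers, 1 to 12, are not shared between groups. Of 23 alternatives (22 for the interaction), 0 members were called at 48 hr between genotypes and in the interaction under any. At 0 hr, 0 members were called, but DESeq2 called 3 (Scd2, Pmvk and Acaca), the likelihood ratio test called 1, the leave-one-out fits called 0 to 1 (Acat2 without WT 0 hr replicate 2, Scd2 without KO 0 hr replicate 6), and leaving out KO 0 hr replicate 6 and KO 48 hr replicate 12 together called 1 (Scd2, 1.09). The cause was not tested. That pair and comparison by library totals were added after seeing the data. Uncalled member values changed sign in 33 of 690 refits at 0 hr, 22 of 690 at 48 hr and 27 of 660 for the interaction.

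For stimulation, members called were 29 to 30 of 30 in both genotypes with each library left out, and 25 to 29 in KO and 25 to 30 in WT under the other alternatives. Members called higher fell to 23 in each genotype by library totals and to 24 in KO and 23 in WT under upper-quartile scaling, and members called lower were then 2, Scd1 and Insig2. Upper-quartile scaling turned WT Srebf2 to -0.11, Insig2 to -0.32 and Acaca to -0.075, and KO Insig2 to -0.41. By library totals, Srebf1, Srebf2, Insig2, Acaca and Elovl5 were -0.027, -0.32, -0.535, -0.29 and -0.055 in WT, and Srebf1, Srebf2, Insig2 and Elovl5 were -0.044, -0.017, -0.60 and -0.135 in KO cells; the median of all genes was then -1.28 in WT and -1.115 in KO cells, against -0.39 and -0.30 with TMM. Insig2 in WT cells lost its call without WT 48 hr replicates 7 or 8 or WT 0 hr replicates 1 or 3, and in KO cells gained one as higher without KO 0 hr replicate 6 (0.35, adjusted p = 0.033) and as lower under both scalings above (adjusted p = 0.0094 and 0.0004).

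Over all genes, the calls at 0 hr were 212 (79 to 426 with a library left out, 645 by DESeq2, 547 by the likelihood ratio test, 75 in a fit of those libraries only and 674 without the pair). At 48 hr they were 386 (136 to 1080 with a library left out, 1069 by DESeq2, 1000 by the likelihood ratio test, 193 by limma-voom and 1351 without the pair), with 282 higher and 104 lower by edgeR and 587 and 482 by DESeq2. At 0 hr they split into 130 higher and 82 lower, and 114 and 111 by library totals. For the interaction they were 22 (3 to 90 with a library left out, 220 by DESeq2, 184 by the likelihood ratio test and 136 without the pair). Stimulation calls split into 6311 higher and 7206 lower in KO and 6311 and 7827 in WT cells, but 4231 and 10481 in KO and 4180 and 10944 in WT under upper-quartile scaling, and 3657 and 11344 in KO and 3603 and 11925 in WT by library totals.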
